A study of Mus musculus with 18 samples.

Results

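The proteasome genes were followed in 18 bulk RNA-seq libraries of neutrophils sorted from 6 tissues of C57BL/6 mice. Members were chosen by name: all protein-coding genes of the deposited expression table whose mouse symbol begins with Psma, Psmb, Psmc, Psmd, Psme or Psmf and whose value is at least 1 in 3 or more libraries. Such a name was carried by 46 of 32328 genes, and 45 of them passed the threshold on values. The gene left out was Psma8, the testis form of an alpha subunit, whose value was under 1 in all 18 libraries. Psmc3ip passed by its name although its product is a meiotic recombination factor and no proteasome subunit.

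The proteasome is the main protease of the cytosol and nucleus. Its 20S core is a barrel of stacked rings: the outer rings are built of alpha subunits (Psma genes) and the inner rings of beta subunits (Psmb genes), of which Psmb5, Psmb6 and Psmb7 cut peptide bonds. The 19S particle caps the barrel, binds ubiquitin-tagged proteins through its non-ATPase subunits (Psmd genes) and unfolds them with a ring of ATPases (Psmc genes). In haematopoietic cells and under interferon-gamma the cutting subunits are replaced by Psmb8, Psmb9 and Psmb10, which make the immunoproteasome and favour peptides that fit MHC class I. In neutrophils the proteasome is also known for the turnover of regulators of survival and of inflammatory signalling.

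Each tissue, bone marrow, blood, spleen, lung, intestine and skin, was represented by 3 libraries. All came from adult animals of 8 to 12 weeks with no treatment or genetic change named in the labels. Cells were sorted by flow cytometry on CD45, CD11b and the neutrophil antigen Ly6G, with a stated purity above 95%, and their RNA was amplified before library construction. The labels do not say whether the 3 libraries of a tissue came from different animals or from pools, so p-values measure the spread between libraries, which may be technical in part. In bulk RNA, fewer cells of a type and less RNA per cell cannot be told apart.

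Values are given as scaled counts: estimated read counts, plus 0.5, scaled to the effective size of each library, not divided by gene length. Each library held 2.94e+06 (lung replicate 1) to 1.21e+07 (spleen replicate 2) estimated counts, and the median proteasome gene rested on 28 to 523 of them. The libraries did not all follow their label. The summed level of 12 neutrophil markers was 31810 to 69903 in bone marrow and blood, 5509 to 17080 in spleen and lung, but 840.3 to 1310.3 in intestine and 1055 to 18108 in skin. The 6 stromal markers summed to 5474 to 10847 in intestine, 1119 to 4143 in skin and 185 to 1190 in lung. They summed to 16.3 to 70.9 in bone marrow, blood and spleen, with none of the 6 at 0 in any tissue. The 7 macrophage and monocyte markers summed to 865 to 1475 in intestine and 802 to 2367 in skin. Their sums were 574 to 894 in bone marrow, 487 to 839 in blood, 388 to 559 in lung and 374 to 521 in spleen. The 6 endothelial markers summed to 483 to 1219 in intestine and 658 to 2324 in lung, and to at most 115 elsewhere. The 6 epithelial markers summed to 419 to 8320 in skin. A group of gene models led by Gm10800 took 25.3% to 52.6% of the values of the skin libraries and at most 8.64% elsewhere. Mitochondrial transcripts took 8.23% to 23.2% in intestine and at most 2.87% elsewhere. The main results are therefore also given without the intestine libraries, or without intestine and skin.

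Most proteasome genes passed no test of a difference between tissues. In an F test across the 6 tissues (limma on log2 of the scaled count + 1, Benjamini-Hochberg adjusted p under 0.05), 10 of the 45 members were called, or 22.2%, against a background of 40.4% of 16157 tested genes. They were Psma5, Psmb6, Psmb11, Psmc1, Psmc5, Psmd1, Psmd2, Psmd7, Psme2b and Psme4. Each tissue was next compared with the mean of the other 5. Blood had 5 members higher and 7 lower, intestine 6 higher and 1 lower, bone marrow and spleen 1 higher each, and lung and skin none. The backgrounds were 24.7% of all genes in blood (12.4% higher, 12.3% lower), 28% in intestine (17.3% higher, 10.7% lower), 12.1% in bone marrow (6.37% higher), 12.6% in spleen (6.89% higher), 3.86% in lung and 0.972% in skin. The members' shares were 26.7% in blood and 15.6% in intestine, so the blood share was near its background and the intestine share was the smaller of its pair. At an unadjusted p under 0.05 lung had 0 members and skin 5. These 6 comparisons rest on the same 18 libraries and are given side by side only.

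**Figure D1:**
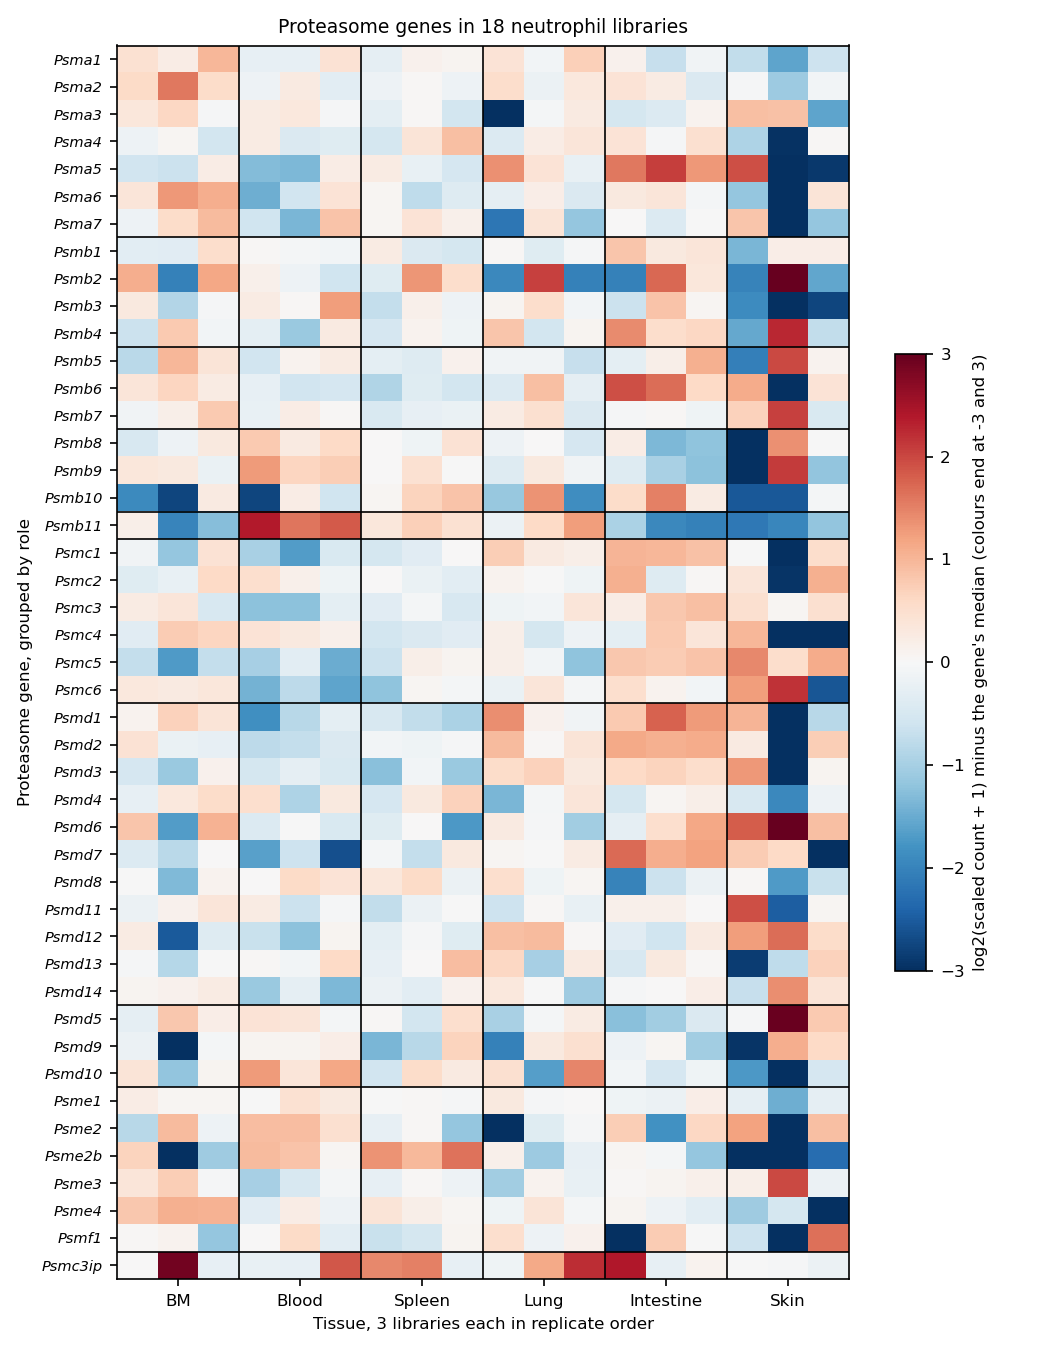
Level of each of the 45 proteasome genes in the 18 libraries, as log2 of the scaled count + 1 minus the gene's median over the libraries, in colours that end at -3 and 3, with genes in rows by structural role and libraries in columns by tissue. The skin columns carry the most extreme values in both directions, and the intestine columns are high for Psma5, Psmd1, Psmd2 and Psmd7.

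Within a tissue, the spread between the 3 libraries was wide. The median coefficient of variation of a member was 22.5% in spleen, 27.9% in intestine, 30.4% in blood, 32.4% in lung, 37.0% in bone marrow and 89.7% in skin. Skin replicate 2 had the smallest effective library, with 17 members under 10 estimated counts and 6 at 0. The weight estimated for skin was 0.223, against 2.13 for blood and 2.09 for spleen. Summed over the 45 members, the level was 1885, 2139 and 2251 in bone marrow, 2285, 2152 and 2101 in intestine, 1983, 1852 and 1774 in lung, 1720, 1707 and 1848 in blood, and 1573, 1712 and 1754 in spleen. The skin libraries reached 2072, 2976 and 1715. Blood and spleen had the lowest sums and did not overlap bone marrow or intestine, while all sums outside skin lay within 1573 to 2285.

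The catalytic subunits are the point where the constitutive proteasome and the immunoproteasome part. Psmb5 (chr14:54614119-54618022, minus strand; GRCm38, the build called mm10), the chymotrypsin-like subunit, is replaced by Psmb8 (chr17:34197721-34201454, plus strand). Psmb6 (chr11:70525367-70527858, plus strand), the caspase-like subunit, is replaced by Psmb9 (chr17:34181987-34187764, minus strand), and Psmb7 (chr2:38588036-38644087, minus strand), the trypsin-like subunit, by Psmb10 (chr8:105935735-105938444, minus strand). Psmb8 and Psmb9 lie in the MHC region, with the peptide transporter gene Tap1 between them.

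The starts of these genes are shown because both genes of the MHC pair were called higher in blood, while their partners were not. The Psmb8 call was lost in 22 of 30 alternative analyses and the Psmb9 call in 3. Each window is the 300 bases from 250 before to 50 after the RefSeq start site on GRCm38.p6. It is given in the direction of transcription, in lower case with motif matches in capitals. The Psmb8 window is chr17:34197945-34198244 (plus strand), Psmb5 chr14:54617946-54618245 (minus), Psmb9 chr17:34187281-34187580 (minus) and Psmb6 chr11:70525107-70525406 (plus).
Psmb8: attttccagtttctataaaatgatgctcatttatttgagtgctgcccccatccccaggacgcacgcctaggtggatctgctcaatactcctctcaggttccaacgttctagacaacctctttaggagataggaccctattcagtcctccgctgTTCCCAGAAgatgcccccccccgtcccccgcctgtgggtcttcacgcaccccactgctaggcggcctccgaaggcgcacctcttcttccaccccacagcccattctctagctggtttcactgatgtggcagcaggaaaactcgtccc
Psmb5: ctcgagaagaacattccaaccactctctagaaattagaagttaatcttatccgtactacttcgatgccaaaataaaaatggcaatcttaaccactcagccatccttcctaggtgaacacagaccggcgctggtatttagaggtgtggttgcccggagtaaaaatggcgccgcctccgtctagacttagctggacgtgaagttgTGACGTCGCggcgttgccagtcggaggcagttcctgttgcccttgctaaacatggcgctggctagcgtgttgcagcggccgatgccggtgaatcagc
Psmb9: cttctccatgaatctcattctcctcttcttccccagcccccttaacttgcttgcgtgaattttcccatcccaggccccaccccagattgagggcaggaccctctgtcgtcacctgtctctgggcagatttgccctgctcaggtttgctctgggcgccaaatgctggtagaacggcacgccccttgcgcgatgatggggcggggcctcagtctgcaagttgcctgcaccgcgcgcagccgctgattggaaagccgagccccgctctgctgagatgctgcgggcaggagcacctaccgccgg
Psmb6: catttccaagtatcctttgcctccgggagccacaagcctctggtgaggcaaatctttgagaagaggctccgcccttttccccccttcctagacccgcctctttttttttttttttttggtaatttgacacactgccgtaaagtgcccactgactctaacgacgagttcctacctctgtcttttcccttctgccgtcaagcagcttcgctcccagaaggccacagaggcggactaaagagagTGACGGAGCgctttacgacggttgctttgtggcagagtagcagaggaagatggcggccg

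Motifs of 3 kinds were searched on both strands. The interferon-stimulated response element was taken as GAAA, any 2 bases and GAAA again, the gamma-activated sequence TTCNNNGAA, and the core of the antioxidant response element bound by Nfe2l1 and Nfe2l2 TGACNNNGC. No printed window held more than 1 match, so none overlapped. The Psmb8 window held TTCCCAGAA at 97 bases before the start, Psmb5 TGACGTCGC at 47 before, Psmb6 TGACGGAGC at 9 before, and Psmb9 no match to any of the 3. The Psmb8 and Psmb9 windows lie wholly inside the gene coordinates given above. The bases at the annotated outer starts of both genes were therefore not searched. Over the 39 member genes with a window, 4 held the first motif, 2 the second and 6 the third. Of 32817 promoters of the same length 3.43%, 8.29% and 12.4% did. A match in these letters is a description and not a bound site.

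Of the constitutive cutting subunits Psmb6 passed the F test, with its highest level in intestine, and Psmb5 and Psmb7 did not. Psmb5 had 17.4, 63.3 and 41 scaled counts in bone marrow, 20.5, 33.3 and 36.7 in blood, 28.9, 28.8 and 18.7 in lung, 24.9, 23.4 and 34.1 in spleen, 25.2, 35.3 and 66.3 in intestine and 6.67, 125 and 33.4 in skin. All 6 groups overlapped, with an F test adjusted p of 0.893. Psmb5 shares 40.7% of its stretches of 61 bases, the read length, with the pseudogene Gm3375, whose level was 0.261 on average. Psmb7 had 72.3, 88.1 and 136 in bone marrow, 67.2, 91.4 and 80.7 in blood, 92.3, 109.9 and 57.5 in lung, 56.5, 66 and 68.2 in spleen, 75.9, 80.4 and 71.3 in intestine and 126, 326 and 56.5 in skin. Spleen lay below bone marrow and intestine without overlap, but the F test did not pass (adjusted p = 0.516), and Psmb7 shares 405 exon bases with Nek6. Psmb6 had 25.8, 31.4 and 23.7 in bone marrow, 16.6, 12.9 and 13.8 in blood, 14.8, 38 and 16.3 in lung, 10.2, 15.1 and 13.3 in spleen, 78.4, 65.7 and 30.5 in intestine and 44.2, 1.51 and 26.5 in skin. Intestine replicates 1 and 2 lay above all other libraries and replicate 3 did not. The log2 difference of intestine from the other tissues was 1.61 (SE 0.48, adjusted p = 0.0137), and it missed the threshold without intestine replicate 1 (1.35, adjusted p = 0.0564) or replicate 2 (1.48, adjusted p = 0.0682).

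Psmb9 and Psmb8 were called higher in blood than in the mean of the other tissues, but neither passed the F test across tissues. Psmb9 had 102, 65.2 and 70.1 scaled counts in blood, against 52.7, 51.3 and 35.8 in bone marrow, 31.2, 50.8 and 38.3 in lung, 41.8, 57 and 41.1 in spleen and 31.5, 20.5 and 17.2 in intestine. Blood was above these 4 groups without overlap, and intestine was below blood, bone marrow and spleen without overlap. The skin libraries spanned the whole range with 0.515, 179 and 17.6. The blood difference was 1.28 (SE 0.37, adjusted p = 0.0155) on the log2 scale, or 79 ± 19.9 (SD, n = 3) scaled counts against 46.6 ± 9.02 (SD, n = 3) in spleen. It missed the threshold without blood replicate 1 (1.08, adjusted p = 0.0861) and without the 3 intestine libraries (1.16, adjusted p = 0.0792), and passed it without intestine and skin (0.81, adjusted p = 0.0486). The intestine difference was -0.82 (SE 0.48, adjusted p = 0.222) and did not pass, nor did the F test across tissues (adjusted p = 0.0695). Psmb9 shares 212 exon bases with Tap1 on the opposite strand. Whether the counting used strand is not given in the sources used here, and Tap1, named after its values were seen, was itself higher in blood (log2 difference 1.5, SE 0.31, adjusted p = 0.00125).

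Psmb8 had 165, 114 and 144 scaled counts in blood, 67.5, 84.6 and 116 in bone marrow, 84.5, 94.8 and 66.6 in lung, 95.3, 85.9 and 128 in spleen, 111, 36.7 and 40.2 in intestine and 0.368, 244 and 93.8 in skin. Blood was the highest group by mean, but its replicate 2 lay below bone marrow replicate 3 and spleen replicate 3. Skin replicate 2, at 244, lay above all 3 blood libraries. The blood difference of 1.08 (SE 0.39, adjusted p = 0.0475) stood close to the threshold. It was lost in 22 of 30 alternative analyses, with 0.62 (adjusted p = 0.138) without skin replicate 1 and 0.63 (adjusted p = 0.0791) without intestine and skin. Skin replicate 1, at 0.368, was the lowest library for Psmb8. Erythroid markers summed to 2904 to 8882 in blood and to at most 2067 elsewhere. Their part in the blood results was not tested. Psmb8 shares 498 exon bases with the gene model Gm20496 on the opposite strand. Of the 46 genes 14 share exon bases with another gene, 12 of them with one on the opposite strand.

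Psmb10 had the lowest level per kb of these 6 genes in every tissue. Its values were 6.4, 10.4 and 11.8 scaled counts in spleen, 9.42, 19.4 and 7.46 in intestine, 2.24, 17.1 and 0.963 in lung, 0.895, 0.0571 and 7.57 in bone marrow, 0.0598, 7.38 and 3.74 in blood and 0.221, 0.216 and 5.86 in skin. It had 0 estimated counts in bone marrow replicate 2, blood replicate 1 and skin replicate 2, which allows levels of up to 0.343, 0.359 and 1.3 scaled counts there, for counting error only. Psmb10 did not pass the F test (adjusted p = 0.194). Its differences were 1.33 (SE 0.67, adjusted p = 0.206) in spleen and -0.55 (SE 0.67, adjusted p = 0.566) in blood.

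**Figure D2:**
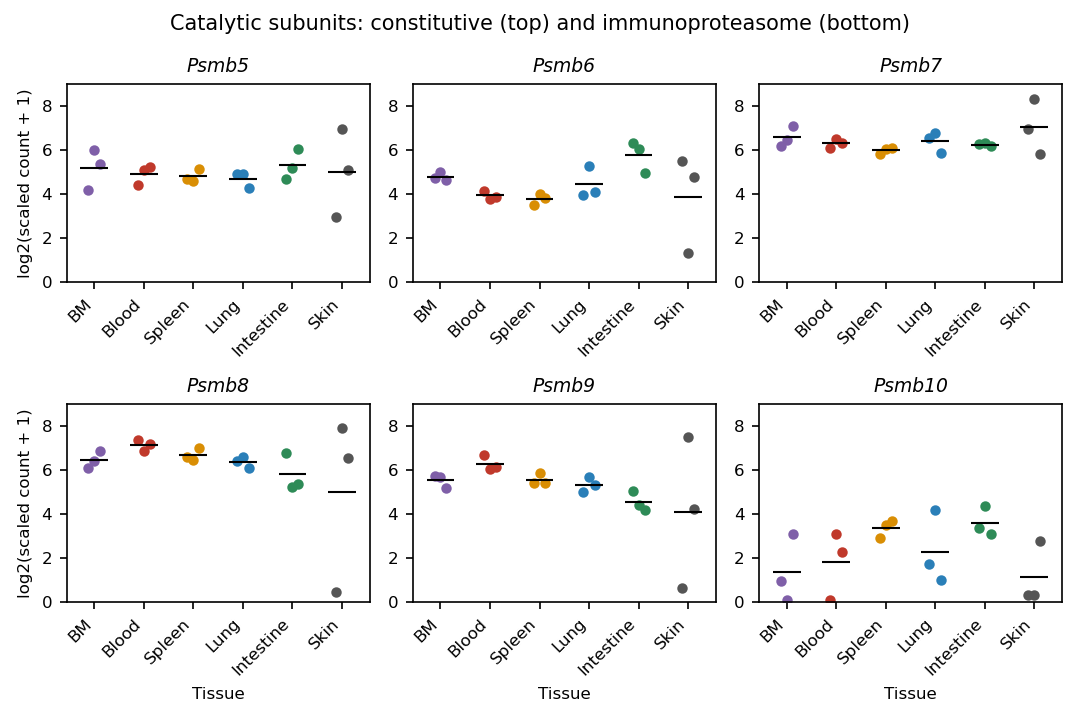
Levels of the 3 constitutive (top) and the 3 immunoproteasome (bottom) catalytic subunits by tissue, as log2 of the scaled count + 1, with 1 point a library and a line at the tissue mean (n = 3). Psmb8 and Psmb9 have their highest tissue mean in blood, Psmb6 has it in intestine, and the skin points of Psmb8 and Psmb9 spread over most of the axis.

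Set against its partner within each library, Psmb9 and Psmb8 had their highest tissue mean in blood. These differences are a description with no test, because the genes were picked with earlier results known. They are not corrected for gene length, so the change between tissues can be read and the sign cannot. The log2 level of Psmb9 minus that of Psmb6 was 2.55, 2.25 and 2.26 in blood, 1.0, 0.69 and 0.57 in bone marrow, 1.03, 0.41 and 1.18 in lung and 1.93, 1.85 and 1.56 in spleen. In intestine it was -1.29, -1.64 and -0.79, and in skin -4.9, 6.16 and -0.57. Blood lay above all groups but skin, and intestine lay below bone marrow, blood, spleen and lung without overlap. Psmb8 minus Psmb5 averaged 2.21 ± 0.64 (SD, n = 3) in blood, 1.87 ± 0.03 in spleen, 1.26 ± 0.76 in bone marrow, 1.66 ± 0.13 in lung, 0.48 ± 1.45 in intestine and -0.02 ± 2.15 in skin. Blood, at 2.94, 1.75 and 1.94, overlapped spleen, lung, bone marrow and intestine here, and spleen, with values of 1.89, 1.83 and 1.88, had the smallest SD. Psmb10 minus Psmb7 ran from -2.65 ± 0.28 in spleen and -2.66 ± 0.58 in intestine to -4.12 ± 1.3 in lung, -4.53 ± 1.32 in blood, -5.22 ± 1.2 in bone marrow and -5.95 ± 2.59 in skin. The third pair thus ordered the tissues differently from the first.

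Averaged over the 3 pairs, the difference was 0.33 ± 0.04 in spleen, 0.01 ± 0.18 in blood, -0.53 ± 0.31 in lung, -1.07 ± 0.61 in bone marrow, -1.14 ± 0.42 in intestine and -1.91 ± 2.42 in skin. Spleen lay above blood without overlap, blood and lung met at -0.17, and lung, bone marrow, intestine and skin overlapped. A pseudocount of 0.1 in place of 1 moved the blood mean to -0.30, by more than its SD, with Psmb10 at 0 counts in 1 blood library. After division by transcript length, Psmb9 made up 76.1% ± 1.99 (SD, n = 3) of the Psmb9 and Psmb6 total in blood, 68.1% ± 3.13 in spleen, 50.3% ± 3.91 in bone marrow, 52.6% ± 7.42 in lung, 19.9% ± 4.77 in intestine and 42.5% ± 50.5 in skin. The share of Psmb8 in its pair was 71.8% ± 8.58 in blood, 67.5% ± 0.436 in spleen, 64.2% ± 2.28 in lung, 57.2% ± 13.3 in bone marrow, 44.1% ± 23.8 in intestine and 38.5% ± 31.1 in skin, and blood overlapped spleen, lung, bone marrow and intestine. The share of Psmb10 was 11.5% ± 2.18 in spleen, 12% ± 4.91 in intestine, 5.22% ± 5.97 in lung, 3.56% ± 3.31 in blood, 2.87% ± 4.79 in skin and 1.95% ± 2.44 in bone marrow.

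**Figure D3:**
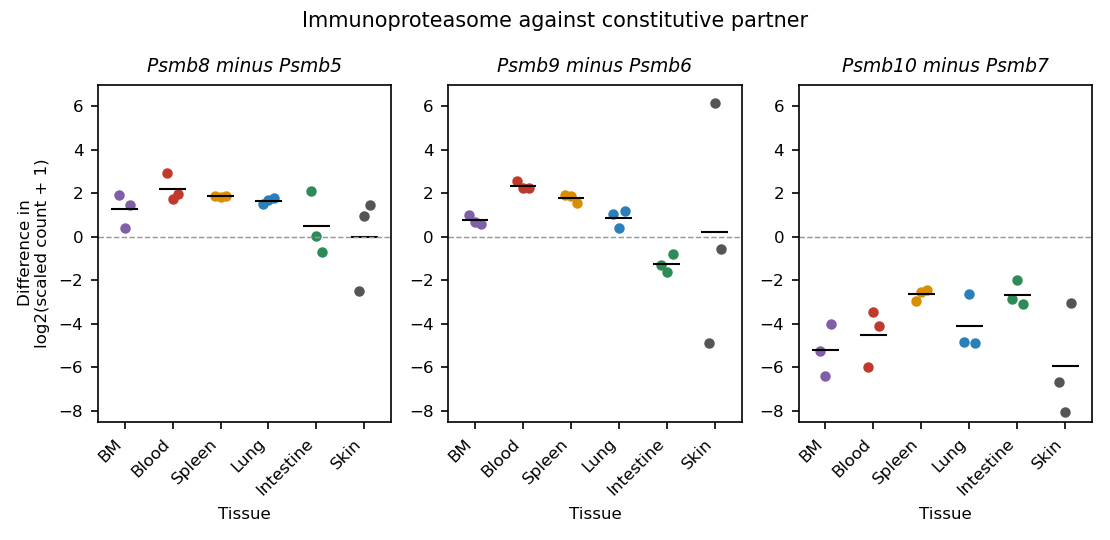
Difference between each immunoproteasome subunit and the constitutive subunit it replaces, in log2 of the scaled count + 1, with 1 point a library, a line at the tissue mean and a dashed line at 0. The values are not corrected for gene length, so only their order between tissues can be read: for Psmb9 minus Psmb6 the blood points lie above those of all groups but skin, and the 3 intestine points lie below those of bone marrow, blood, spleen and lung.

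Psmb11, the cutting subunit of the thymoproteasome and known from thymic cortical epithelium, was the member with the smallest F test p. It had 23.5, 13.2 and 15.9 scaled counts in blood, 3.19, 6.17 and 10.3 in lung, 4.97, 6.8 and 5.42 in spleen, 4.3, 0.201 and 0.953 in bone marrow, 1.43, 0.237 and 0.164 in intestine and 0.0736, 0.216 and 1.07 in skin. All 3 blood libraries were above all 15 others, a pattern found for 1.49% of tested genes and for no other member in blood. The blood difference was 2.61 (SE 0.49, adjusted p = 0.000521), and it passed in all 30 alternative analyses, at 1.92 (adjusted p = 0.0363) without intestine and skin. The level was low: per kb of transcript its median over the 15 libraries outside skin was 1.17 scaled counts, against 58.2 for Psmb8. Psmb11 (chr14:54621433-54629556, plus strand) shares no exon bases with another annotated gene, but 1.41% of its 61-base stretches also occur in transcripts of 100 other genes. Its estimated counts in blood were fractional, at 196.136, 121.175 and 151.687, and its value is uncertain.

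Of the 7 alpha subunits, which form the gate of the barrel, Psma5 alone was called in the F test and in intestine. Psma5 had 98.3, 137 and 80.1 scaled counts in intestine, 84, 42.8 and 27.3 in lung, 38, 27.2 and 22.3 in spleen, 21.1, 20.1 and 37.3 in bone marrow, 12.3, 11.9 and 37.3 in blood and 125, 2.81 and 3.44 in skin. Intestine exceeded all other groups except for overlap with lung replicate 1 and skin replicate 1. The difference was 2.08 (SE 0.54, adjusted p = 0.00528), and it passed in all 28 alternative analyses that kept intestine. Psma5 shares stretches of 61 bases with pseudogenes, over 27.5% of its own with Gm8394, whose level was 0.0898 on average.

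Psma6 had 63, 122 and 105 scaled counts in bone marrow and 17, 32.2 and 64.8 in blood, with an F test adjusted p of 0.116. Psma2 had 109, 219 and 106 in bone marrow, above all 15 other libraries (33.5 to 105), yet its bone marrow difference of 0.95 (SE 0.32, adjusted p = 0.0518) did not pass. That lack of overlap in bone marrow, seen in Psma2 and Psme4, was found for 1.91% of tested genes. None of the 4 structural beta subunits, which fill the inner rings without cutting, was called. The smallest F test adjusted p among them was 0.211 for Psmb3, whose skin values of 3.02, 0.649 and 1.21 lay below the 7.14 to 34.6 of all other libraries. Psme1 and Psme4 shared that place in skin, so 3 of 45 members had it, against 2% of tested genes. Some of these values rest on few counts. Psmb3 had 20, 1 and 6 estimated counts in skin, and Psme4 had 2 in skin replicate 3. Psmb4 and Psmb1 had F test adjusted p of 0.401 and 0.642.

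The subunits of the 19S particle called in blood were all lower there, and those called in intestine were all higher there. In blood 7 of its 17 subunits were called lower (Psmc3, Psmc5, Psmc6, Psmd1, Psmd2, Psmd7 and Psmd14, the last named after its values were seen) and none higher, against 12.3% of all tested genes called lower. In intestine 4 were called higher (Psmc1, Psmd1, Psmd2 and Psmd7) and none lower, against 17.3% called higher. By group, 50% of the ATPases and 36.4% of the non-ATPase subunits were called in blood. In intestine 16.7% and 27.3% were called, so the intestine count was not far from its background. Only Psmd1, Psmd2 and Psmd7 were called in both tissues. Blood was set against a mean that includes intestine, so the blood and intestine differences are not independent. Without the intestine libraries, Psmc6 alone of these subunits was still called lower in blood. In the fit without weights its call was lost as well. Median differences in blood were -0.95 over the 6 ATPases and -0.62 over the 11 non-ATPase subunits, against -0.05 over all tested genes. In intestine they were 0.78 and 0.26, against 0.14.

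Psmd7, the lid subunit that holds the deubiquitinating subunit Psmd14 in place, showed both differences. It had 5.94, 12.8 and 2.4 scaled counts in blood, 15, 11.1 and 20.6 in bone marrow, 21.2, 20.0 and 24.4 in lung, 19.5, 11.9 and 25.2 in spleen, 67.8, 44.4 and 48.3 in intestine and 35.2, 31.4 and 0.093 in skin. The 3 intestine libraries were above all others, and blood overlapped bone marrow and spleen. The differences were -1.61 (SE 0.46, adjusted p = 0.0127) in blood and 1.95 (SE 0.59, adjusted p = 0.0152) in intestine. Without the intestine libraries the blood value was -1.27 (adjusted p = 0.135), and without blood replicate 3 it was -1.1 (adjusted p = 0.111). Without intestine replicate 3 the intestine value was 2.01 (adjusted p = 0.0931).

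Psmd1 and Psmd2 are the large scaffold subunits of the base, to which ubiquitin-binding shuttles dock. Psmd1 had 17.2, 35.2 and 52 scaled counts in blood, 68.7, 104 and 84.4 in bone marrow, 169, 70.4 and 59.5 in lung, 45.8, 37.8 and 32.5 in spleen, 131, 3.25 and 35.2 in skin and 110.3, 220.0 and 157 in intestine. Intestine was above blood, spleen and bone marrow but overlapped lung and skin, with differences of 1.69 (SE 0.47, adjusted p = 0.00872) in intestine and -1.02 (SE 0.37, adjusted p = 0.0439) in blood. The intestine call was lost without replicate 2 (1.45, adjusted p = 0.0658) or replicate 3 (1.69, adjusted p = 0.0741), and the blood call without the intestine libraries (-0.71, adjusted p = 0.28) and in 18 of 30 alternative analyses in all. Psmd1 also shares 301 exon bases with the gene model Gm21972 on the same strand.

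Psmd2 had 156, 148 and 153 scaled counts in intestine, above the 8.01 to 136 of all other libraries, and 40.7, 42.4 and 52.1 in blood, below bone marrow, spleen and lung. The differences were 1.29 (SE 0.36, adjusted p = 0.00808) in intestine and -0.80 (SE 0.28, adjusted p = 0.0358) in blood. The intestine call was lost without intestine replicate 3 (1.29, adjusted p = 0.071). The blood call was lost without bone marrow replicate 1, blood replicate 1 or 2, lung replicate 1, or skin replicate 1 or 3, with values of -0.77 to -0.66 (adjusted p 0.0516 to 0.115). The blood value was -0.57 (adjusted p = 0.251) without intestine, and -0.76 (adjusted p = 0.0405) without intestine and skin.

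Among the ATPases, Psmc1 had 58.6, 57.6 and 53.6 scaled counts in intestine, above the 0.216 to 48.1 of all other libraries. Psmc1, Psmd2 and Psmd7 had this lack of overlap in intestine, against 5.17% of tested genes. The Psmc1 difference was 1.47 (SE 0.52, adjusted p = 0.0351), and the call was lost without any 1 of the intestine libraries, with values of 1.45 to 1.51 (adjusted p 0.0585 to 0.154). Psmc6 had 13.5, 21.4 and 11.8 in blood, 46.9, 45.5 and 47.6 in bone marrow, 32.8, 48.4 and 35.9 in lung, 15.8, 39.2 and 36.2 in spleen and 54, 40.7 and 35.4 in intestine. In skin Psmc6 had 91.5, 172 and 5.49, with replicate 3 below all blood libraries. Blood was below bone marrow, lung and intestine and overlapped spleen replicate 1. Its blood difference of -1.34 (SE 0.36, adjusted p = 0.00923) passed without intestine and skin as well (-1.24, adjusted p = 0.0307). Psmc3, at 10.1, 10.1 and 20.3 in blood, 29.9, 32.5 and 17.6 in bone marrow, 22.6, 23.6 and 32.5 in lung, 19.5, 23.9 and 17.5 in spleen and 29.2, 44.9 and 47.9 in intestine, overlapped between blood, bone marrow and spleen. It differed in blood by -1.07 (SE 0.32, adjusted p = 0.0183), and by -0.95 (adjusted p = 0.0951) without intestine. That call was also lost without blood replicate 1 (-0.92, adjusted p = 0.0886) or 2 (-0.92, adjusted p = 0.0968). Psmc5 had 12.3, 20.3 and 8.49 in blood, 15.2, 7.14 and 15.1 in bone marrow, 28.6, 23.8 and 10.5 in lung, 16, 28.9 and 27.2 in spleen, 70.7, 37 and 56.1 in skin and 44.9, 43.8 and 46.8 in intestine. Skin was highest by mean, and blood overlapped bone marrow, spleen and lung. Its blood difference of -0.99 (SE 0.36, adjusted p = 0.0455) was lost in 22 of 30 alternative analyses, and was -0.41 (adjusted p = 0.529) without intestine and skin.

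The intestine libraries that carried the high 19S values had neutrophil-marker sums of 840.3 to 1310.3, among the 4 lowest with skin replicate 1 (1055), and the highest stromal-marker sums. Their part in the intestine values was not tested. Leaving the 3 intestine libraries out, an alternative added after the data were seen, reduced the members called by the F test to 2 (Psmb11 and Psme2b) and those called in blood to 1 higher (Psmb11) and 1 lower (Psmc6). Leaving out intestine and skin gave 2 by the F test (Psmb11 and Psme4) and 2 higher (Psmb9 and Psmb11) and 2 lower (Psmc6 and Psmd2) in blood. Over all tested genes the calls fell as well, from 6521 by the F test to 3190 and 2753, and from 3989 in blood to 1522 and 1284.

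**Figure D4:**
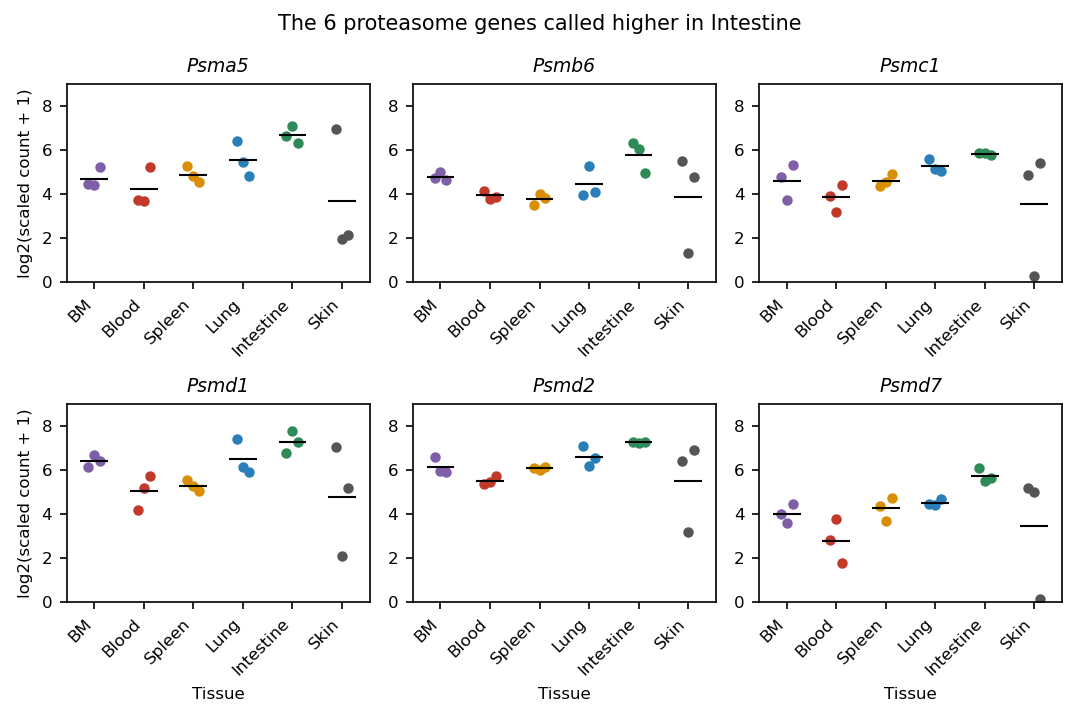
The 6 proteasome genes called higher in intestine, by tissue, as log2 of the scaled count + 1, with 1 point a library and a line at the tissue mean. The 3 intestine points of Psmc1, Psmd2 and Psmd7 lie above all other points, while those of Psma5, Psmb6 and Psmd1 overlap a lung or skin library. Those of Psmb6 also overlap bone marrow replicate 2.

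Of the 3 chaperones that assemble the 19S base, 1 was called in blood and 1 in intestine. That is 33.3% in each, near the 24.7% and 28% of all tested genes. None of the 3 passed the F test, also not at an unadjusted p under 0.05. Psmd10, also known as gankyrin, had 71.4, 37.1 and 65.8 scaled counts in blood, 38, 12.1 and 30.3 in bone marrow, 40.1, 8.45 and 80.4 in lung, 19, 42.3 and 34.8 in spleen, 27.2, 19.8 and 26.4 in intestine and 8.02, 0.649 and 19.8 in skin. Its blood difference of 1.42 (SE 0.44, adjusted p = 0.0213) came with overlap, since blood replicate 2 lay within the range of bone marrow, spleen and lung. The difference was 0.96 (adjusted p = 0.196) without intestine and skin, 1.25 (adjusted p = 0.095) without blood replicate 1 and 1.31 (adjusted p = 0.0807) without blood replicate 3. Psmd5 had 18.1, 21.3 and 32.9 in intestine, 59.8, 57.8 and 42.8 in blood, 36.8, 79.5 and 51.9 in bone marrow, 22.4, 42.8 and 53.7 in lung, 45.7, 30.5 and 64 in spleen and 44, 358 and 78.5 in skin. Intestine overlapped spleen and lung. It was the only member called lower in intestine (-1.21, SE 0.41, adjusted p = 0.0317), and it lost the call without any 1 intestine library, without skin replicate 2 or without skin (-0.97, adjusted p = 0.0528).

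Activators open the core without the 19S particle. Psme4 (chr11:30771726-30880361, plus strand), a single-chain activator of the nucleus known for histone turnover, was the bone marrow gene of the family. It had 135, 161 and 158 scaled counts in bone marrow, 60.7, 89.8 and 68.7 in blood, 70.4, 99.9 and 74 in lung, 100.4, 86.3 and 79.4 in spleen, 81.1, 69.3 and 61.8 in intestine and 36, 52.6 and 0.465 in skin. Bone marrow was above all other libraries and skin below all others. The bone marrow difference was 1.45 (SE 0.38, adjusted p = 0.0156), and 0.91 (adjusted p = 0.0668) without intestine and skin. It was also lost without bone marrow replicate 1 (1.53, adjusted p = 0.0839) or replicate 3 (1.42, adjusted p = 0.121).

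Psme1 and Psme2 form the interferon-inducible ring-shaped activator. Psme1 had 122, 108 and 108 in bone marrow, 103, 144 and 128 in blood, 128, 101 and 104 in lung, 104, 107 and 101 in spleen, 95.1, 92.5 and 120.1 in intestine and 85.9, 37 and 86.2 in skin. No difference between tissues passed the test (F test adjusted p = 0.683), and in blood its difference was 0.35 (SE 0.22, adjusted p = 0.246). Psme2 had 49.5, 50.1 and 36.1 in blood, 14, 50.5 and 22.9 in bone marrow, 2.31, 19.8 and 25.1 in lung, 21.8, 26.5 and 11 in spleen, 44, 6.61 and 40.1 in intestine and 60.5, 0.216 and 48.7 in skin. Its blood difference of 1.28 (SE 0.53, adjusted p = 0.0786) did not pass.

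Psme2b (chr11:48945354-48946190, minus strand) is a copy of Psme2 annotated as a single exon on another chromosome. It shares 64.5% of its 61-base stretches, the read length used, with Psme2, so reads of the pair can be split between them and both values are uncertain. It had 62.3, 47.7 and 75.5 scaled counts in spleen, 46.9, 44.2 and 24.9 in blood, 38.2, 1.79 and 10.8 in bone marrow, 26.4, 10.6 and 19.8 in lung, 0.84, 0.216 and 4.09 in skin and 24.8, 22.9 and 10.1 in intestine. All 3 spleen libraries were above the other 15, as in 0.477% of tested genes. The differences were 2.28 (SE 0.49, adjusted p = 0.00354) in spleen and 1.45 (SE 0.48, adjusted p = 0.0316) in blood, and without intestine and skin they were 1.64 (adjusted p = 0.0786) and 0.72 (adjusted p = 0.376). The blood call was also lost without blood replicate 1 or 2, lung replicate 2 or skin replicate 1, with values of 1.29 to 1.42 (adjusted p 0.0515 to 0.117). B cell markers summed to 767 to 1210.1 in spleen and at most 359 elsewhere, and their part in the spleen value was not tested. Psme3, the nuclear relative of Psme1 and Psme2, and Psmf1, an inhibitor of the core, had F test adjusted p of 0.275 and 0.789. Psme3 averaged 84.8 ± 22.6 (SD, n = 3) in bone marrow and 46.8 ± 15.3 (SD, n = 3) in blood. Psmf1 averaged 11.9 ± 5.29 and 15.8 ± 5.34.

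**Figure D5:**
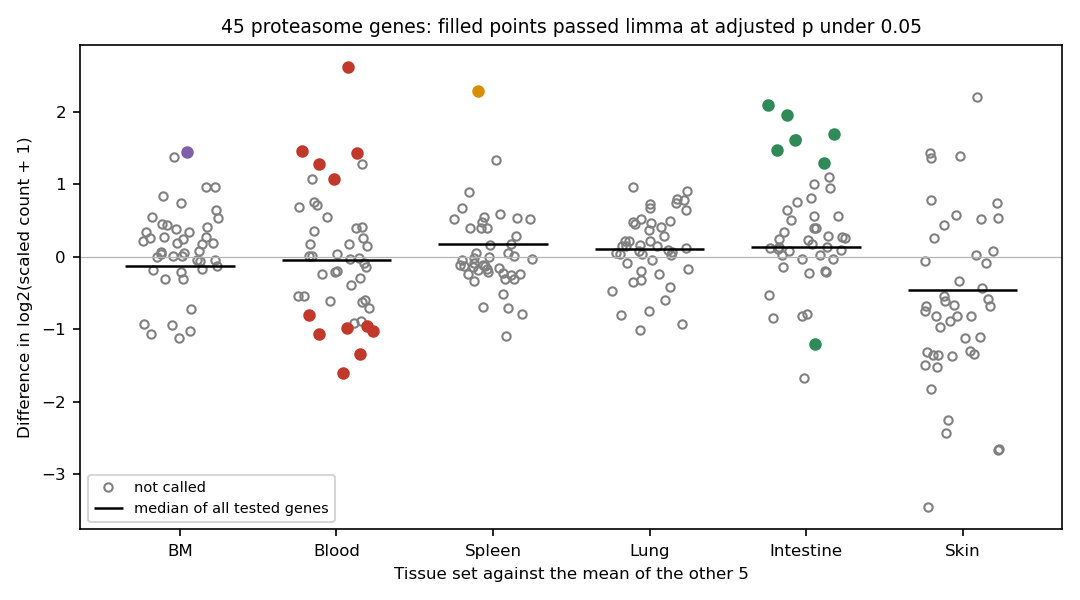
Log2 difference of each tissue from the mean of the other 5 for the 45 proteasome genes, 1 point a gene, with called genes (adjusted p under 0.05) marked. Blood has called genes on both sides of 0, those in intestine lie above 0 but for Psmd5, and lung and skin have none.

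Levels of different subunits can be compared only per kb of transcript, here as the median over the 15 libraries outside skin. The transcript taken was the longest protein-coding one with a consensus coding sequence tag, where a gene had one. Levels per kb, and the shares within pairs given above, depend on that choice. Although the subunits are built into the particle in equal numbers, the 14 genes of the constitutive core ranged from 4.39 scaled counts per kb for Psmb2 to 72.1 for Psma1, a 16.4-fold range. The 17 genes of the 19S particle ranged from 9.65 for Psmd3 to 49.9 for Psmc2, a 5.17-fold range. Psme1 was highest of all members, at 96. Psmb8 and Psmb9 stood at 58.2 and 30.9, against 32.1 for Psmb5 and 20.8 for Psmb6, while Psmb10 stood at 5.63 and Psmb7 at 65.4. Psmb2 had 0 counts in 5 libraries and its value is uncertain.

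Genes around the proteasome were counted from 3 lists. All 3 were chosen with earlier results of these data known, so their order is a description only. The list of interferon control and peptide transport, which holds regulators known to act on Psmb8 and Psmb9, had the largest share called by the F test. In that list 12 of 14 genes were called, or 85.7% against 40.4% of all tested genes. In blood 10 were higher and 1 lower, with a median difference of 1.08, and in intestine 8 were lower and 1 higher, with a median of -0.94. The backgrounds are those given above, 12.4% higher in blood and 10.7% lower in intestine. Irf1, an interferon-induced transcription factor, differed by 1.67 (SE 0.26, adjusted p = 7.10e-05) in blood and -1.4 (SE 0.33, adjusted p = 0.00255) in intestine. Irf2 differed by 1.57 (SE 0.27, adjusted p = 0.00017) and -1.5 (SE 0.34, adjusted p = 0.00171). Irf8, a factor of monocyte, dendritic and B cells, was the exception in both tissues, at 1.14, 5.39 and 2.66 scaled counts in blood and 116, 61.2 and 68.9 in intestine, with differences of -3.12 (SE 0.54, adjusted p = 0.000212) and 2.21 (SE 0.70, adjusted p = 0.0196). Without the intestine libraries 7 genes of the list were higher and 1 lower in blood, and the counts were the same without intestine and skin. Without weights 3 were higher and 1 lower in blood. In intestine 3 were lower without intestine replicate 3 and 5 without intestine replicate 2, and the range over 28 alternatives was 3 to 9. The F test called 7 of the list without intestine, with or without skin. The part of the low neutrophil-marker sums of intestine in these values was not tested.

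Of the 17 tested genes of assembly and regulation 8 were called by the F test, or 47.1%, near the 40.4% of all tested genes. In blood 2 were higher and 1 lower, or 17.6% against 24.7%, and in intestine 2 were lower and none higher, or 11.8% against 28%. Zfand5, a ubiquitin-binding stimulator of the proteasome, averaged 422 ± 55.2 (SD, n = 3) scaled counts in blood and 105 ± 35.2 (SD, n = 3) in intestine, with differences of 0.89 (SE 0.21, adjusted p = 0.00301) and -1.55 (SE 0.27, adjusted p = 9.90e-05). Zfand2a, induced with the heat shock genes, was lower in bone marrow (-2.78, SE 0.61, adjusted p = 0.00411). Usp14, a deubiquitinase bound to Psmd2, was lower in blood (-2.06, SE 0.44, adjusted p = 0.00146), as Psmd2 was. Nfe2l2, an antioxidant factor that can raise proteasome genes, was lower in intestine (-1.49, SE 0.36, adjusted p = 0.00279), where its level averaged 69.8 ± 8.03 (SD, n = 3) against 307 ± 178 (SD, n = 3) in lung.

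Of the 14 genes of ubiquitin supply and delivery 2 were called by the F test, Rad23b and Vcp, or 14.3% against 40.4% of all tested genes. Rad23b, a shuttle that brings ubiquitin-tagged proteins to the 19S particle, differed by -1.1 (SE 0.22, adjusted p = 0.000935) in blood and 0.95 (SE 0.29, adjusted p = 0.0143) in intestine. Vcp, the segregase that pulls such proteins out of complexes, was higher in intestine (1.11, SE 0.33, adjusted p = 0.0136), as was the shuttle Ubqln2 (1.19, SE 0.44, adjusted p = 0.0447).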

How the data were processed

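RNA-seq libraries of sorted neutrophils from 6 mouse tissues were analysed, 3 libraries a tissue. Per the labels' protocols, RNA was amplified and read as single-end reads of 61 bases. The submitters' processing notes name CASAVA, RSEM 1.3.1, limma and the build mm10. The strand setting and the gene annotation are not given in the sources used here. The deposited table is called normalized TPM by the authors, but its values are not divided by gene length. The deposited values are a normalized signal that the authors made from RSEM counts: the lowest value of each library is that of 0 counts, and the steps between values show an offset of 0.5 added to each estimated count before scaling to the size of the library. Only 50.2% to 66.9% of the counts above 0 recovered in this way were whole (tolerance 0.01), so no count test was used.

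Gene names came from GENCODE on GRCm38, which named 31899 of 32328 genes. limma 3.58.1 (R 4.3.3) was fitted to log2(value + 1) of the 16157 genes that reached a value of 1 in 3 or more libraries, with 6 tissue means, all 18 libraries, 12 residual degrees of freedom, a trended prior and a weight per tissue. An F test and each tissue against the mean of the other 5 were adjusted by Benjamini-Hochberg over all tested genes at 0.05. The weights depart from an earlier unweighted treatment, which in simulation called unchanged genes in skin. The fit was tested on simulated data. An earlier form of the simulation gave too many calls among unchanged genes, and its noise was changed while the fit and the limit were left as they were. The final noise had 1 spread per tissue, as the weights assume. It therefore cannot check the fit where libraries of a tissue differ, and gives the fit no independent support. Weights estimated per library ran from 0.591 to 3.01 within lung.

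Members, gene lists and the design were chosen with earlier results of these data known. Genes were named by rule: the 6 catalytic subunits and the activators always, the 3 smallest F test p-values of each structural group, the 3 largest called differences in each direction and tissue, and up to 4 genes of each pathway list. Some genes that this rule names are not reported here. Alternatives were the pseudocount, the filter, the weights, TMM and quantile scaling, a replicate block, leaving out each library, and leaving out skin or intestine. No 2 libraries were near duplicates (highest correlation 0.942). Shared stretches of 61 bases, shared exon bases and promoter motifs were found by exact search, with Python 3.11.15 and pandas 2.3.3.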

Additional observations from a re-analysis of the deposited data

How the results depend on the processing

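Single members gave 916 recomputed values, over 21 calls in a tissue and 10 by the F test. Of these, 724 kept their side of the threshold and 192 lost it. Direction could change only in the tissue differences, where 0 did. Counts of called members that moved by over 1.5 times are given here. Without weights the F test called 5 members, bone marrow 0 higher, blood 1 higher and 0 lower, spleen 0 higher, intestine 1 higher, and skin 1 higher and 7 lower. Over all tested genes that fit called 31.9% by the F test, 5.9% higher and 12.9% lower in skin, and 2.43% higher and 2.79% lower in blood. With a weight per library bone marrow had 2 higher and skin 1 lower. With no filter on low values blood had 2 higher and 4 lower and intestine 0 lower. With a value of at least 5 in 3 libraries bone marrow had 3 higher and intestine 2 lower, and with a pseudocount of 0.5 intestine had 2 lower. Quantile normalisation, which shifted the median of all genes by -0.33 in intestine, 0.30 in skin, -0.17 in lung, 0.14 in bone marrow and 0.11 in blood, gave 4 lower in blood, 2 lower in spleen, 1 lower in skin and 6 higher with 3 lower in intestine. Without the skin libraries blood had 3 higher, spleen 2 lower and intestine 3 lower. Without the intestine libraries, chosen after seeing the data, the F test called 2, and blood had 1 higher and 1 lower. Without intestine and skin, also chosen after seeing the data, the F test called 2, bone marrow 0 higher, blood 2 higher and 2 lower, and spleen 0 higher. The cause of these moves was not tested.

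Leaving out each library in turn gave 5 to 12 members by the F test, 0 to 2 higher in bone marrow, 1 to 5 higher and 2 to 8 lower in blood, 2 to 6 higher and 0 to 3 lower in intestine, and 0 to 1 lower in skin and in spleen. The F test called 6 without intestine replicate 2 and 5 without replicate 3, and intestine had 3 and 2 higher then. Blood had 1 higher and 2 lower without blood replicate 1, and 3 higher and 4 lower without blood replicate 2. It had 3 higher without blood replicate 3 or lung replicate 2, and 4 lower without lung replicate 1, skin replicate 1 or skin replicate 3. Bone marrow had 0 without bone marrow replicate 1 or 3. The mean immunoproteasome difference moved past its spread in blood alone, to -0.30 with a pseudocount of 0.1.

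Residuals showed little pairing by replicate number: of 45 same-numbered pairs 1 had a residual correlation over 0.1 (range -0.06 to 0.11). The library names give blood replicate 3 the letter D, where the other tissues have C, so pairing by letter was not tested there. Whether same-numbered libraries share an animal or a batch is not given in the labels. With a replicate block the F test called 9 members and blood had 4 higher and 5 lower. Members under 10 estimated counts, up to 17 in skin replicate 2, limit what the skin libraries can show.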
